A study of Sus scrofa with 6 samples.

Results

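The genes described here are the HECT-type ubiquitin ligases other than UBE3A and HERC2, with the E2 enzymes, E1 enzymes and polyubiquitin gene that feed them. They were taken by name from a list of 36 genes, and 32 of the 36 had a row under that name among 28965 genes. Of these, 22 were HECT ligases and 10 were E2 enzymes, E1 enzymes or ubiquitin. All 32 passed the filter on low counts. HERC3, HECW2, UBE2L3 and UBE2E1 had no row under their names. HERC3 and UBE2E1 could be given a row through a table of gene IDs, and their values are shown apart from the 32.

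Ubiquitin is attached to proteins in a relay. An E1 enzyme activates ubiquitin, an E2 enzyme receives it on a cysteine, and an E3 ligase brings it to the substrate. RING ligases let the E2 hand ubiquitin over directly, whereas HECT ligases first take it onto a cysteine of their own HECT domain, named after UBE3A (E6AP). In the nervous system HECT ligases are known for the turnover of receptors, channels, signalling proteins and misfolded proteins.

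RNA of the cervical spinal cord was sequenced from poly(A)-selected libraries of 6 male pigs aged 140 days. The 3 wild-type animals were compared with 3 animals that carried a deletion of UBE3A on the allele from the mother, with 1 library per animal. Every cell of a deletion animal keeps the paternal allele, which neurons normally silence. The labels do not give the extent of the deletion. Libraries held between 17181003 and 22492366 exon reads, and 3 reads correspond to 0.133 to 0.175 CPM, reads scaled by library size, in the 6 libraries, a limit that covers counting error only. Levels are TMM-scaled CPM, and fold changes are deletion over wild type on the log2 scale. The comparison asks whether the relatives of UBE3A and the enzymes upstream of them differ in RNA level when the maternal copy is missing.

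UBE3A (ENSSSCG00000004832), the deleted gene, was lower in every library labelled as a deletion. Its level was 57.0, 65.5 and 60.6 CPM in wild-type replicates 1 to 3, against 21.4, 27.1 and 21.4 CPM in deletion replicates 1 to 3. The groups did not overlap, and UBE3A fell by 1.39 on the log2 scale (SE 0.13; edgeR quasi-likelihood adjusted p 0.0253). With the ID prefix of the animals, 14 or 15, as a block the adjusted p by edgeR was 0.0526, and without wild-type replicate 1 or any one deletion library it was 0.0728 to 0.152. The tissue markers were those of spinal cord, with neuron, oligodendrocyte and astrocyte genes present in every library. Several marker sums differed between the groups. The summed level of 18 neuron markers ran from 2520 to 6661 CPM in the wild-type libraries and from 9439 to 19319 CPM in the deletion libraries. That of 11 meninges and fibroblast markers ran from 2494 to 3197 CPM in the wild-type libraries and from 404 to 703 CPM in the deletion libraries, and 8 Schwann cell markers summed to 1294 to 5012 and 592 to 816 CPM. The sums of 10 smooth muscle and mural markers were 487 to 3181 and 153 to 201 CPM. The ranges of 11 oligodendrocyte markers, 77339 to 134589 and 88738 to 132156 CPM, overlapped. In a bulk sample, fewer cells of a type and less RNA per cell cannot be told apart.

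No member passed the threshold, an adjusted p under 0.05 by edgeR's quasi-likelihood test over 14566 genes. Of all genes 1.02% passed, 26 higher and 123 lower, and the smallest adjusted p among the members was 0.0552. At an unadjusted p under 0.05 there were 4 members higher and 0 lower, where 11.1% of all genes were higher and 9.09% lower. By DESeq2, which called 9.5% of 14265 genes with an adjusted p, HECW1 was higher and no other member passed. The median log2 fold change of the 32 members was 0.18, with 26 positive values, against a median of 0.047 over all genes, of which 56.7% were positive. The whole 95% interval lay within 1 log2 unit on either side of 0 for 31 of the 32 members, HECW1 being the exception, compared with 71.4% of all genes. UBE3A's own interval ran from -1.70 to -1.08.

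**Figure D1:**
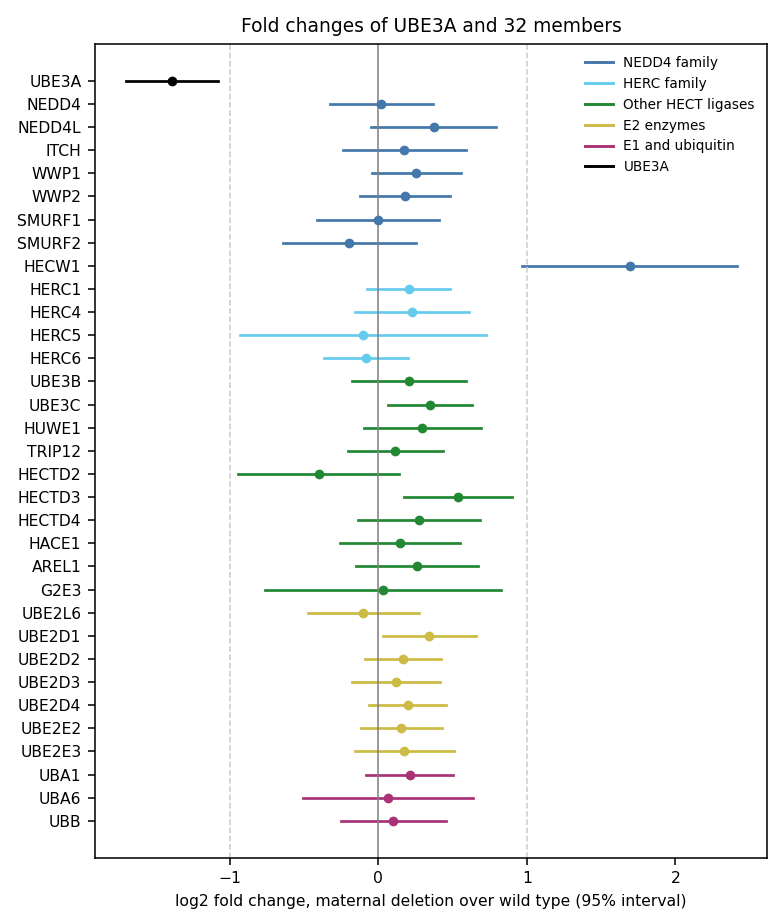
Log2 fold change of UBE3A and of the 32 members, maternal deletion over wild type (points), with 95% intervals (lines), coloured by role. Dashed lines mark 1 log2 unit. UBE3A lies at -1.39 and HECW1 at 1.69, while the other 31 members lie between -0.40 and 0.54.

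In 8 of the 32 members every deletion library was above every wild-type library, and in 0 every deletion library was below. Over all genes the first pattern was seen in 15.2% and the second in 11.2%. The 8 were HECW1, HERC1, UBE3C, HECTD3, UBE2D1, UBE2D2, UBE2D4 and UBA1. The plot of levels shows that the separation was narrow for most of them.

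**Figure D2:**
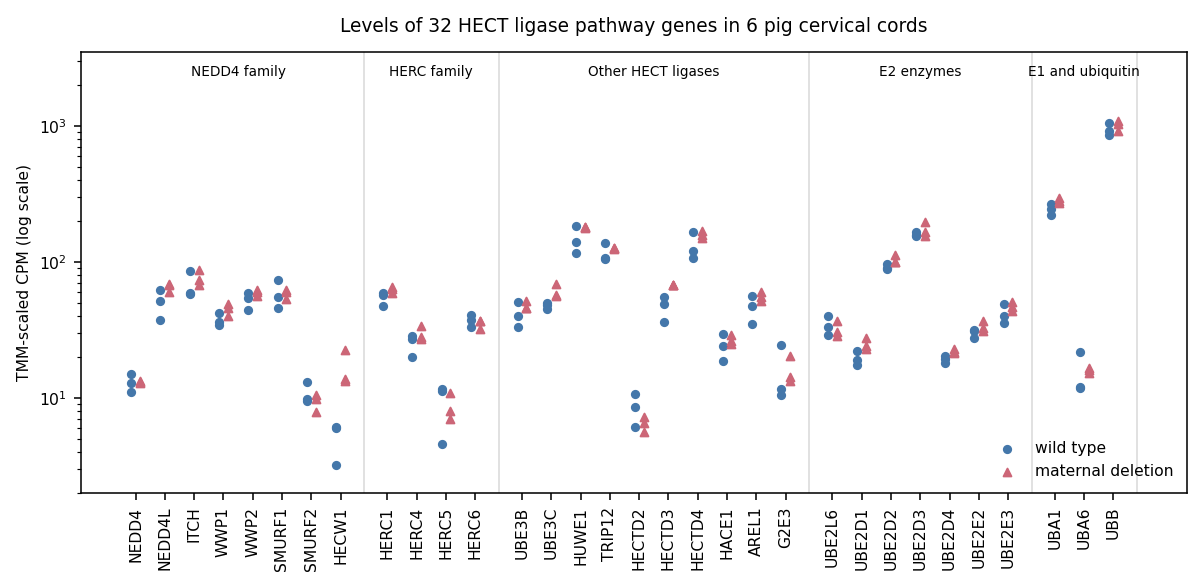
TMM-scaled CPM of the 32 members in each library on a log axis, wild type as circles and maternal deletion as triangles, grouped by role. HECW1 is the member whose groups stand farthest apart, and UBB has the highest level.

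The NEDD4 family joins a lipid-binding C2 domain and WW domains, which hold proline-rich motifs of the substrate, to the HECT domain. HECW1, a member known from neurons, had the largest difference of all members. Replicates 1 to 3 of wild type had 6.10, 6.03 and 3.21 CPM, against 13.8, 22.4 and 13.4 CPM in deletion replicates 1 to 3. Every deletion library was above the wild-type libraries, and deletion replicate 2 was the highest. The group means were 5.12 ± 1.65 and 16.5 ± 5.07 CPM (SD, n = 3 each), at 70 to 139 reads per wild-type library and 277 to 426 per deletion library. The log2 fold change was 1.69 (SE 0.31; 95% interval 0.97 to 2.41) and the adjusted p, by edgeR's quasi-likelihood test, was 0.0552, just outside the threshold.

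The call of HECW1 depended on the test and on the libraries. DESeq2 gave an adjusted p of 6.57e-05, limma voom with quality weights 0.0488 and edgeR without a filter on low counts 0.0333, and leaving out wild-type replicate 3 gave 0.0344 by edgeR with a log2 fold change of 1.38. Across 16 alternatives the value stayed positive and 4 passed, with adjusted p from 6.57e-05 to 0.447. HECW1 and the summed neuron markers were both higher in all 3 deletion libraries than in any wild-type library, with 18 of 18 neuron markers positive, a median log2 fold change of 0.95 and 0 past the edgeR threshold (12 at an unadjusted p under 0.05, 8 by DESeq2). With the mean log2 CPM of 18 neuron markers as a covariate, its log2 fold change was 0.91 (SE 0.48; edgeR quasi-likelihood adjusted p 0.357). Between the single deletion and wild-type animals of ID prefix 14, the ratio was 2.27, and in those of prefix 15, 2 per genotype, the log2 fold change was 1.87 (SE 0.44; adjusted p 0.447 by edgeR's quasi-likelihood test).

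**Figure D3:**
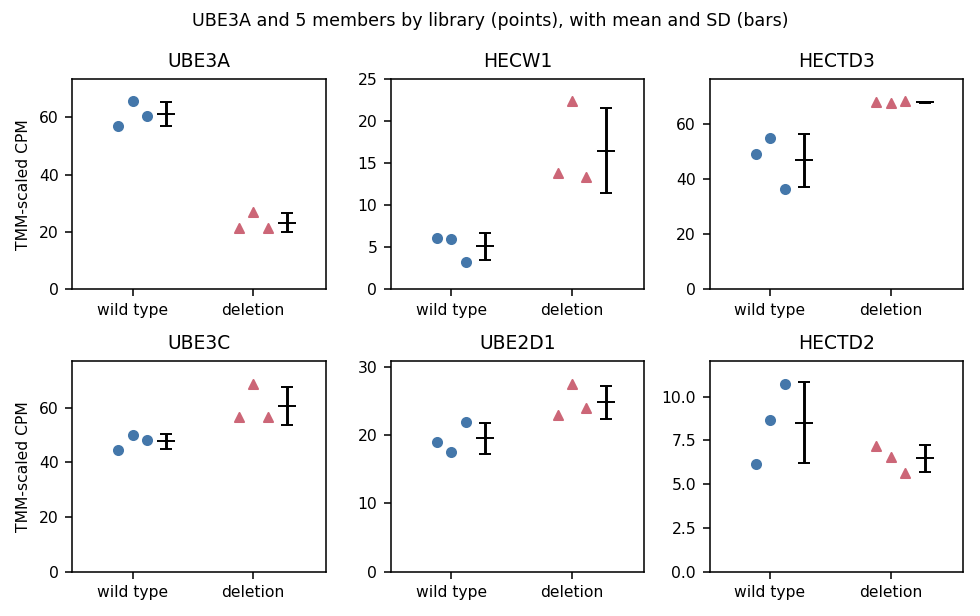
TMM-scaled CPM of UBE3A, of the 4 members with an unadjusted p under 0.05 and of HECTD2, the member with the most negative value, per library (circles wild type, triangles maternal deletion). Black bars give the mean and SD of 3 libraries. HECTD3 lies between 67.5 and 68.1 CPM in all deletion libraries.

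NEDD4L, which is known for the removal of epithelial sodium channels from the membrane, stood at 51.3, 37.5 and 61.9 CPM in the wild-type libraries against 67.5, 68.2 and 59.6 CPM in the deletion libraries. The groups overlapped through wild-type replicate 3. It had a log2 fold change of 0.37 (SE 0.18; 95% interval -0.048 to 0.80), and 0.19 without wild-type replicate 2. The close relatives WWP1 and WWP2 gave 0.26 (SE 0.13) and 0.18 (SE 0.13). ITCH, a ligase known from immune tolerance, gave 0.18 (SE 0.18).

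The founding member NEDD4 stood at 11.1, 12.8 and 15.0 CPM in the wild-type libraries against 13.4, 13.2 and 12.9 CPM in the deletion libraries, a log2 fold change of 0.021 (95% interval -0.32 to 0.37). SMURF1 and SMURF2, which act on SMAD proteins and receptors of the TGF-beta and BMP pathways, gave -0.0016 (SE 0.18) and -0.19 (SE 0.19). SMURF1 spread from 46.1 to 73.5 CPM within wild type and from 53.0 to 62.1 CPM in the deletion libraries. The edgeR quasi-likelihood adjusted p of these 7 members ranged from 0.310 to 0.998.

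HERC ligases carry RCC1-like repeats beside the HECT domain. HERC1, a very large protein of membrane traffic, stood at 47.5, 57.1 and 58.9 CPM in the wild-type libraries against 59.5, 63.2 and 65.8 CPM in the deletion libraries. The groups did not overlap, by a narrow margin between wild-type replicate 3 and deletion replicate 1. The log2 fold change was 0.21 (SE 0.12; edgeR quasi-likelihood adjusted p 0.408). HERC4 gave 0.23 (SE 0.17), and HERC3, placed through its gene ID, 0.088 (SE 0.10).

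HERC5 and HERC6 lie next to each other in the RefSeq gene table of assembly Sscrofa11.1, and both are known as interferon-induced. HERC5, the human ligase for the ubiquitin-like protein ISG15, stood at 4.58, 11.3 and 11.6 CPM in the wild-type libraries against 6.94, 10.9 and 7.95 CPM in the deletion libraries. The lowest and the highest library were both wild type. The log2 fold change was -0.10 with a 95% interval of -0.93 to 0.73, the widest of the 32 members. HERC6 ran from 33.3 to 40.8 CPM in the wild-type libraries and from 32.02 to 36.8 CPM in the deletion libraries, with a log2 fold change of -0.082 (SE 0.12). UBE2L6, the E2 enzyme of ISG15, gave -0.099 (SE 0.16), from 29.0, 33.2 and 40.1 CPM in the wild-type libraries against 28.5, 36.8 and 30.2 CPM in the deletion libraries. Of 24 other interferon-stimulated genes tested, 0 passed the threshold, 1 was lower at an unadjusted p under 0.05 and 0 higher, and 0 passed by DESeq2. Of all genes 9.09% were lower and 11.1% higher at that unadjusted p. PARP14, BST2 and CMPK2 gave -0.42, -0.44 and 0.37. The median of the 24 was -0.14, and their summed level was 689, 868 and 983 CPM in the wild-type libraries against 750, 979 and 849 CPM in the deletion libraries. Replicate 1 of each genotype had the lowest summed level of its group, as it did for HERC5 and UBE2L6, whereas the lowest HERC6 level of the deletion group was in replicate 3.

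Among the remaining HECT ligases, HECTD3 had the second largest difference of the members. HECTD3, a ligase with a DOC domain, stood at 48.9, 54.9 and 36.4 CPM in the wild-type libraries against 67.7, 67.5 and 68.1 CPM in the deletion libraries. The 3 deletion libraries were nearly equal, and wild-type replicate 3 was the lowest. The log2 fold change was 0.54 (SE 0.16; 95% interval 0.17 to 0.90), with adjusted p-values of 0.117 by edgeR's quasi-likelihood test and of 0.0808 by DESeq2. Without wild-type replicate 3 it was 0.32 (SE 0.11; edgeR quasi-likelihood adjusted p 0.131). The mean log2 CPM of the neuron markers was 6.18, 6.65 and 5.68 across the wild-type libraries, then 6.87, 7.26 and 7.36 across the deletion libraries, by replicate number. It had the order of HECTD3 within wild type but not within the deletion group. With that mean as a covariate, which is separable from genotype only in part, the log2 fold change was 0.089 (SE 0.21; edgeR quasi-likelihood adjusted p 0.856). Between the 2 animals of prefix 14 the ratio of deletion to wild type was 1.38.

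UBE3C, a proteasome-associated ligase that extends ubiquitin chains, stood at 44.7, 50.1 and 48.2 CPM in the wild-type libraries against 56.5, 68.9 and 56.7 CPM in the deletion libraries. The groups did not overlap. It had a log2 fold change of 0.35 (SE 0.12; 95% interval 0.066 to 0.63; adjusted p 0.167 by edgeR's quasi-likelihood test). UBE3B, which is less well characterised, gave 0.21 (SE 0.16) from 41.3 ± 8.96 to 47.7 ± 3.20 CPM, and its groups overlapped.

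The giant ligase HUWE1, known for substrates such as MCL1 and p53, stood at 116, 140 and 182 CPM in the wild-type libraries against 180, 177 and 181 CPM in the deletion libraries. Wild-type replicate 3 was as high as the deletion libraries and the other wild-type libraries were lower. The log2 fold change was 0.30 (SE 0.17; edgeR quasi-likelihood adjusted p 0.398), and 0.16 without wild-type replicate 1. HECTD4, which is poorly characterised, was likewise lowest in wild-type replicates 1 and 2, with 106, 120 and 167 CPM in the wild-type libraries against 169, 150 and 157 CPM in the deletion libraries, and gave 0.27 (SE 0.18), or 0.14 with wild-type replicate 1 left out and 0.42 with replicate 3 left out. TRIP12, a ligase of the ubiquitin fusion degradation pathway, gave 0.12 (SE 0.14), from 104, 107 and 138 CPM in wild type to 127, 124 and 127 CPM in the deletion libraries.

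AREL1, an inhibitor of apoptosis, gave 0.26 (SE 0.18), or 0.083 without wild-type replicate 2, and HACE1, a ligase of active RAC1, gave 0.15 (SE 0.18). G2E3, named for its expression in the G2 phase of the cell cycle, stood at 10.5, 11.6 and 24.7 CPM in the wild-type libraries against 20.3, 14.2 and 13.4 CPM in the deletion libraries. The difference on the log2 scale was 0.032 with a 95% interval of -0.76 to 0.83, and wild-type replicate 3 held the highest level. HECTD2 had the most negative value of the members. It stood at 6.16, 8.64 and 10.7 CPM in the wild-type libraries against 7.19, 6.56 and 5.66 CPM in the deletion libraries, with a log2 fold change of -0.40 (SE 0.23; adjusted p 0.408 by edgeR's quasi-likelihood test). The groups overlapped through wild-type replicate 1, without which the value was -0.58.

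Levels of different genes were compared per length, using the authors' TPM. Among the HECT ligase members the highest wild-type means were those of TRIP12 with 46.4 ± 13.0 TPM, HECTD3 with 36.4 ± 5.47, ITCH with 36.3 ± 12.6 and HUWE1 with 31.7 ± 11.03 TPM (SD, n = 3 each). TRIP12 was above ITCH and HUWE1 in each of the 3 wild-type libraries, and HECTD3 was above TRIP12 in wild-type replicate 2. The lowest were HECW1 with 2.56 ± 0.623, NEDD4 with 4.85 ± 1.31, HECTD2 with 5.26 ± 2.01 and HERC5 with 5.43 ± 2.73 TPM. In the deletion group HECTD3, with 50.9 ± 2.82 TPM, had the highest mean, followed by TRIP12 with 47.4 ± 3.05 TPM.

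By TPM, UBE3A was near the middle of these HECT ligases in wild type and towards the low end in the deletion group. Per length it made up 4.10, 4.49 and 3.47% of the summed TPM of 24 HECT ligases in wild type, and 1.25, 1.52 and 1.27% in the deletion group. The 24 were the 22 members, HERC3 and UBE3A itself. UBE3A ranked 11th, 10th and 15th of the 24 in wild-type replicates 1 to 3, and 21st, 20th and 21st in deletion replicates 1 to 3. The share did not overlap between the groups (exact two-sided permutation test, p = 0.1, the smallest that 3 against 3 allows). The 22 members summed to 310, 358 and 504 TPM in wild type and to 421, 422 and 440 TPM in the deletion group. The wild-type libraries lay on both sides of the deletion libraries, with means of 391 ± 101 and 428 ± 10.3 TPM (exact two-sided permutation test, p = 0.7). In TMM-scaled CPM, which is not per length, the sums were 930, 970 and 1236 in wild type and 1225, 1249 and 1199 in the deletion group (exact two-sided permutation test, p = 0.3).

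**Figure D4:**
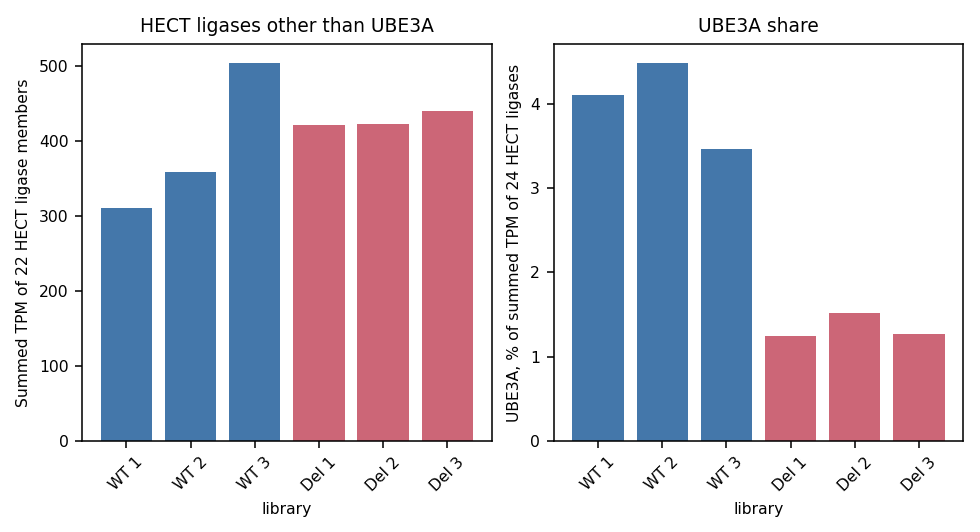
Left, summed TPM of the 22 HECT ligase members in each library; right, UBE3A as a percentage of the summed TPM of 24 HECT ligases. Blue bars are wild type (WT), red bars maternal deletion (Del). The member sum of wild-type replicate 3, 504 TPM, is above all deletion libraries, while the UBE3A share is lower in each deletion library than in any wild-type library.

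HECT ligases mainly accept ubiquitin from UBE2L3 and from the UBE2D and UBE2E families. UBE2L3, the enzyme known to serve UBE3A itself, had no row under its name and was not analysed here. UBE2D1 stood at 19.0, 17.6 and 21.9 CPM in the wild-type libraries against 22.9, 27.6 and 23.9 CPM in the deletion libraries. The groups did not overlap, with a narrow margin between wild-type replicate 3 and deletion replicate 1, and the log2 fold change was 0.34 (SE 0.14; 95% interval 0.029 to 0.66; edgeR quasi-likelihood adjusted p 0.209).

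UBE2D2 stood at 96.9, 89.0 and 90.5 CPM in the wild-type libraries against 99.5, 112 and 98.9 CPM in the deletion libraries, without overlap. It had a log2 fold change of 0.16 (SE 0.11; adjusted p 0.474 by edgeR's quasi-likelihood test). UBE2D4 stood at 19.2, 20.2 and 17.9 CPM in the wild-type libraries against 21.6, 21.3 and 23.0 CPM in the deletion libraries, again without overlap, with a log2 fold change of 0.20 (SE 0.11). UBE2D3 gave 0.12 (SE 0.13), and its deletion libraries spread from 156 to 196 CPM. The UBE2D proteins are near-identical to each other. Their counts would be uncertain where reads were shared between the genes, and such sharing was not measured.

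Per length, UBE2D2 led the E2 enzymes with 173 ± 16.7 TPM in wild type, followed by UBE2D3 with 90.9 ± 11.7 and UBE2E3 with 42.0 ± 11.4 TPM. The 7 E2 members together summed to 344, 371 and 439 TPM in wild type and to 384, 416 and 414 TPM in the deletion group, which overlapped (exact two-sided permutation test, p = 0.6). UBE2E2 and UBE2E3, E2 enzymes with an extended N terminus, gave 0.16 (SE 0.12) and 0.18 (SE 0.14), and UBE2E1, placed through its gene ID, 0.11 (SE 0.11). The 7 E2 members had a median log2 fold change of 0.16, and none of their 95% intervals reached 1 log2 unit from 0.

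At the head of the relay, UBA1, the main E1 enzyme, stood at 265, 220.5 and 246 CPM in the wild-type libraries against 294, 280 and 272 CPM in the deletion libraries. The groups did not overlap, and the log2 fold change was 0.21 (SE 0.13; edgeR quasi-likelihood adjusted p 0.417). UBA6, the second ubiquitin E1, stood at 11.8, 11.9 and 21.9 CPM in the wild-type libraries against 16.6, 15.2 and 15.9 CPM in the deletion libraries, a log2 fold change of 0.064 (SE 0.25). Per length UBA1 was at 193 ± 24.5 TPM and UBA6 at 5.47 ± 2.74 TPM in wild type. UBB, a gene of ubiquitin repeats, stood at 1051, 910 and 858 CPM in the wild-type libraries against 1032, 1078 and 918 CPM in the deletion libraries. This is a log2 fold change of 0.10 (SE 0.15; 95% interval -0.25 to 0.46). Ubiquitin repeats of UBB resemble those of other ubiquitin genes, so its count may be uncertain too, and sharing of its reads was not measured.

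The SD between animals was larger in wild type for 25 of the 32 members, including 19 of the 22 HECT ligases, against 63.1% of all genes. Wild-type replicate 3 was the highest library for 12 members and wild-type replicate 1 the lowest for 14. Wild-type replicate 3 also had the lowest summed neuron level, 2520 CPM, and the highest summed oligodendrocyte level, 134589 CPM. In wild-type replicate 2 these were 6661 and 77339 CPM. The part of these differences in the members' values was not tested beyond the fit with the neuron marker covariate. That covariate ran from 5.68 to 6.65 in wild type and from 6.87 to 7.36 in the deletion group. Without overlap between the groups, the fit can separate neuron marker level from genotype only in part. In that fit the median over the 32 members was 0.35, against 0.057 over all genes. By edgeR's test 0 members passed the threshold, where 3.12% of all genes did. At an unadjusted p under 0.05 there were 9 members, all higher, against 20.1% of all genes in either direction. NEDD4L, with 1.03 (SE 0.22; edgeR quasi-likelihood adjusted p 0.0546), and UBE3B, with 0.80 (SE 0.19; edgeR quasi-likelihood adjusted p 0.0669), came nearest to the threshold. G2E3 gave 1.25, UBA6 0.87, AREL1 0.82 and SMURF1 0.61 there, each larger than without the covariate, while HECW1 and HECTD3 gave smaller values than without it.

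Other genes of ubiquitin transfer were taken from lists of E2 enzymes, enzymes of ubiquitin-like proteins, ubiquitin genes, RBR ligases and adaptors. Of 20 further E2 enzymes tested, 0 passed by edgeR. At an unadjusted p under 0.05, 5 were higher and 0 lower, against 11.1% and 9.09% of all genes. The median log2 fold change of the 20 was 0.15. UBE2O, an E2 and E3 hybrid, had the smallest p, with 90.3 ± 17.6 CPM in the wild-type libraries against 159 ± 33.7 CPM in the deletion libraries. It had a log2 fold change of 0.82 (SE 0.20; adjusted p 0.0903 by edgeR's quasi-likelihood test), and DESeq2 gave an adjusted p of 0.00896. UBE2K and UBE2QL1 gave 0.39 (SE 0.13) and 0.88 (SE 0.32). Of 9 E1 and E2 enzymes of ubiquitin-like proteins 0 passed by edgeR, DESeq2 or an unadjusted p under 0.05, and their median was 0.062. ATG10 and UBA7 gave 0.27 and -0.28. Of the 12 RBR ligases, which also use UBE2L3, 0 passed by edgeR or DESeq2 and 1 had an unadjusted p under 0.05. ARIH2 and RNF14 gave 0.17 and 0.16, and the median was 0.041. RPS27A, which encodes ubiquitin fused to a ribosomal protein, gave -0.33 (SE 0.14).

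Among 11 adaptors and partners of the NEDD4 family, 2 fell and 0 rose by edgeR's test, and the median was -0.13. Of all 14566 genes, 123 fell and 26 rose by that test. SMAD6, an inhibitory SMAD that partners SMURF ligases, stood at 10.98 ± 4.85 CPM in the wild-type libraries against 2.54 ± 0.383 CPM in the deletion libraries and fell by 2.10 (SE 0.34; edgeR quasi-likelihood adjusted p 0.0497). TXNIP, an arrestin-like protein that ITCH ubiquitinates, stood at 67.7 ± 17.4 and 30.2 ± 2.20 CPM and fell by 1.17 (SE 0.20; edgeR quasi-likelihood adjusted p 0.0497). Each passed in 7 of 16 alternatives and kept its sign in all 16. Over all 16 the adjusted p ran from 1.41e-06 (DESeq2) to 0.447 (edgeR) for SMAD6 and from 1.16e-05 (DESeq2) to 0.447 (edgeR) for TXNIP. Both calls were lost with the ID prefix as a block and without any one library other than wild-type replicate 3. In those settings the edgeR adjusted p ran from 0.0744 to 0.208 for SMAD6 and from 0.0899 to 0.208 for TXNIP. SMAD7 gave -0.46 (SE 0.16; edgeR quasi-likelihood adjusted p 0.157). In the same libraries 6 of 11 meninges and fibroblast markers and 4 of 10 smooth muscle and mural markers fell by edgeR's test, while 0 of 8 endothelium markers passed it (5 lower at an unadjusted p under 0.05, 5 by DESeq2). The endothelium markers summed to 383 to 593 CPM in the wild-type libraries against 263 to 364 CPM in the deletion libraries. Whether they have a part in these 2 falls was not tested.

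The authors' deposited table was set beside these values. It lists a false discovery rate for all 32, and 1 of them, HECW1 with a fold of 3.26, was under 0.05, where 7.2% of all genes with a rate were. HECTD3 followed in the authors' deposited table with a fold of 1.47 and a false discovery rate of 0.0567. The sign of the authors' deposited fold was that of the log2 fold change computed here for 98.1% of 14556 genes.

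**Figure D5:**
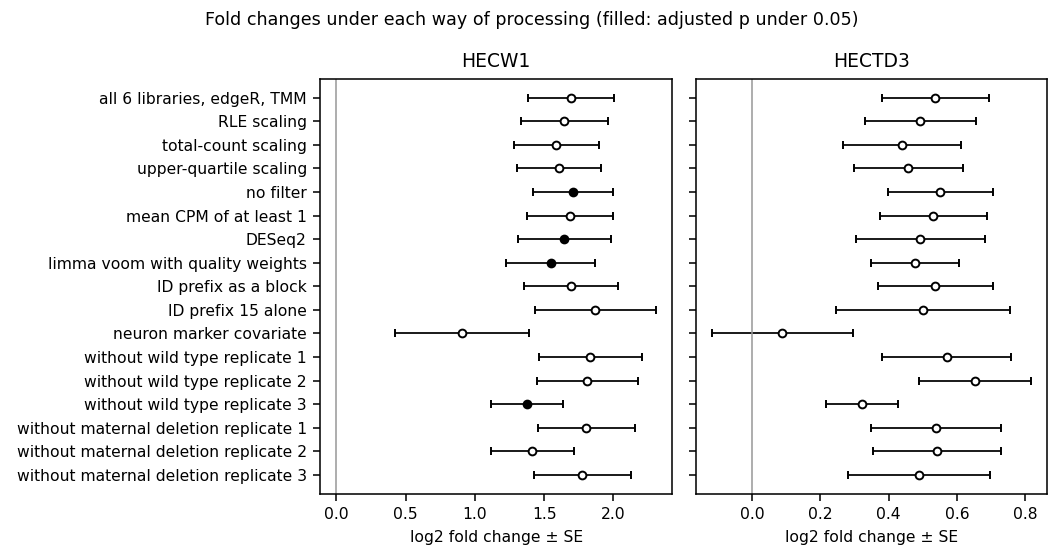
Log2 fold change of HECW1 (left) and HECTD3 (right) with its SE under the settings listed on the vertical axis. Filled points passed an adjusted p of 0.05. All values are positive, HECW1 passes in 4 of 16 alternatives and HECTD3 in 0, and the values with the neuron marker covariate, 0.91 and 0.089, are the lowest of each panel.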

How the data were processed

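For each library the authors deposited whole-number exon read counts per gene, blank where a gene had none. They also deposited RPKM (not used), TPM, used to compare levels between genes, and a column headed CPM, a scaled signal that was not used. The authors' deposited table holds a signed fold change as a score, p-values and false discovery rates. Libraries were made from 1 µg of RNA with a stranded mRNA kit, per the labels' protocols. The aligner, counter, build, annotation and use of strand in counting are not stated in the material used, so reads of antisense partners cannot be told apart.

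Genes were kept by filterByExpr (14566), TMM-scaled and tested by the robust quasi-likelihood test of edgeR 4.0.16 in R 4.3.3, with Benjamini-Hochberg adjustment over all genes and 95% intervals. The alternatives were DESeq2 1.42.0, voom with quality weights in limma 3.58.1, other scalings and filters, the ID prefix as a block, prefix 15 alone, a neuron marker covariate, and leaving out each library. The fit was tested on simulated data. No 2 libraries agreed within sampling noise: over the 15 pairs the smallest ratio of chi-square to its degrees of freedom was 28.1. Animal IDs show 1 animal per library. Replicates were numbered in the order of the samples, so equal numbers are not pairs. Replicate 1 of each genotype is, however, its animal of ID prefix 14.

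The members and lists were chosen with earlier results of these data known. Named genes are all members, UBE3A and, of each other ubiquitin or interferon list, those past the threshold and up to 3 with the smallest p. Some genes that this rule names are not reported here. Of the marker lists, those given are described by sums and counts.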

Additional observations from a re-analysis of the deposited data

How the results depend on the processing

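The number of genes past an adjusted p of 0.05, 149 in edgeR's quasi-likelihood test, was 237 with no filter, 82 with a mean CPM of at least 1, 1355 by DESeq2, 444 by limma voom, 3 with the ID prefix as a block, 0 for prefix 15 alone (1608 at an unadjusted p under 0.05) and 454 with the neuron marker covariate, and 0 to 759 when 1 library was left out. The number of members past it was 1, HECW1, with no filter, DESeq2 and limma voom, and 0 to 1 when 1 library was left out. The median log2 fold change of the HECT ligases, 0.19 with TMM scaling, was 0.41 with the covariate and 0.081 to 0.27 without 1 library. This median was 0.15 with RLE scaling, 0.10 with total-count scaling and 0.12 with upper-quartile scaling. That of the E2, E1 and ubiquitin genes was 0.12 with RLE scaling, 0.067 with total-count scaling, 0.080 with upper-quartile scaling, 0.12 by DESeq2, 0.12 with the covariate and 0.092 to 0.19 without 1 library. UBE3A gave -1.39 with the block (adjusted p 0.0526 by edgeR), -1.44 in prefix 15 (adjusted p 0.358 by edgeR) and -1.51 to -1.33 without 1 library. Leaving out 1 library moved the value of 28 of the 32 members by over 1.5 times or turned its sign. Signs turned for members near 0 and for some farther from it, such as SMURF2 with -0.19 and UBE2E2 with 0.16 by TMM-scaled edgeR. With RLE scaling NEDD4 was -0.017 and G2E3 -0.00058. With total-count scaling NEDD4 was -0.074, G2E3 -0.066 and UBA6 -0.026, and with upper-quartile scaling -0.056, -0.043 and -0.012. NEDD4 was -0.019 by DESeq2. SMURF1 was 0.011 with no filter and 0.10 by voom, where HERC5 was 0.14. In prefix 15 NEDD4 was -0.15, TRIP12 -0.018, HACE1 -0.042, G2E3 -0.44 and UBA6 -0.16. With the covariate SMURF1 was 0.61, SMURF2 0.20, HERC6 0.079, UBE2L6 0.054, UBE2D3 -0.039 and UBE2E2 -0.043. Without 1 library NEDD4 ranged from -0.078 to 0.075, HACE1 from -0.0038 to 0.25, G2E3 from -0.18 to 0.47, UBA6 from -0.089 to 0.36, HERC5 from -0.42 to 0.078, SMURF1 from -0.16 to 0.14 and UBB from -0.018 to 0.19. The cause was not tested. No paired analysis was possible because the replicate numbers follow sample order. The planned fit on uniquely mapped reads was not run. With 3 animals a group, small differences were not detectable for the members. HECTD3, with 0.54 (SE 0.16), and UBE3C, with 0.35 (SE 0.12), did not pass edgeR's threshold. HERC5 and G2E3 had wider intervals than these.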
